A study of Mus musculus with 2 samples.

Results

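The genes of antigen presentation by MHC class II were described in RNA of mouse cells that had been sorted by surface markers for LT-HSCs, the long-term stem cells of the blood. The 10 genes were taken by symbol. They encode class II alpha and beta chains (H2-Aa, H2-Ab1, H2-Eb1), the invariant chain (Cd74), the peptide loading chaperones H2-DM (H2-DMa, H2-DMb1, H2-DMb2) and H2-DO (H2-Oa, H2-Ob), and the transcriptional coactivator of the class II genes (Ciita). All 10 were listed in both libraries, among 17216 genes listed in either, and all 10 passed a filter of a mean of at least 1 FPKM, as did 11985 genes in all. FPKM is a fragment count scaled for transcript length and library depth, so levels of different genes can be set side by side. The set was chosen by gene function with the FPKM differences between these same libraries already known. Its differences are therefore given as a description, and no test was made on them.

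There was 1 library from mice labelled Ccp3-/-, deficient in the glutamate-trimming enzyme CCP3, and 1 from their wild type littermates. Both came from C57BL/6 mice. Sorting kept lineage-negative cells positive for Sca-1, c-Kit and CD150 but negative for CD48. The labels do not give the age or sex of the mice, the number pooled, or the part of the gene that was deleted. With 1 library per genotype no difference has a replicate check, and a value here sets library against library, not genotype against genotype.

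The spacing of low FPKM values gave a depth of about 14.2 M reads in the Ccp3-/- library and 15.4 M in the wild type library. Agbl3, which encodes CCP3, was listed at 0.66 FPKM in the Ccp3-/- library and 1.11 FPKM in the wild type library, from about 15 and 23 reads. Its ratio of 0.595 had a counting interval of 0.291 to 1.20, so it does not check the genotype label, and "knockout-labelled" is used below. RNA of Cd48, although sorting was against the CD48 protein, had 113.9 FPKM in the knockout-labelled library and 136 FPKM in the wild type library. Slamf1, which encodes CD150, had 3.40 FPKM in the knockout-labelled library and 2.14 FPKM in the wild type library. All values describe the cells as sorted.

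Class II molecules display peptides from the endosomal pathway to CD4 T cells. Their alpha and beta chains pair in the endoplasmic reticulum with the invariant chain, which blocks the groove and directs the complex to endosomes. There the invariant chain is cut down to a short remnant, H2-DM exchanges that remnant for peptide, and H2-DO restrains H2-DM. The class II chains, the invariant chain, H2-DM and H2-DO are all targets of Ciita, which binds no DNA itself but docks on a protein assembly at the W, X and Y boxes of their promoters. Dendritic cells, B cells and macrophages carry most class II in the bone marrow, and haematopoietic stem and progenitor cells have been reported to carry some.

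The promoters are shown because X and Y boxes are the shared element on which this set of genes is known to be controlled. RefSeq windows of GRCm38.p6, running from 250 bases before to 50 bases after the annotated start, were used for 7 of the 10 genes, with 8 windows in all. On the gene's strand, the letters AGNAAC, a core of the X box, stood 15 to 35 bases before ATTGG, the core of the Y box to which NF-Y binds, in 4 of these 7 genes. Counted by window, this arrangement was found in 4 of the 8, against 186 of 32851 windows (0.566%) of all genes. The letters were taken from textbook descriptions of class II promoters, so their presence is a description of these windows and not a finding. The stretches below are on the gene's strand, with AGNAAC and ATTGG in capitals.
H2-Eb1 (chr17:34305758-34305822, plus strand): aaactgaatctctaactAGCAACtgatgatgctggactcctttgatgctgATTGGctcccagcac
H2-Ob (chr17:34238798-34238862, plus strand): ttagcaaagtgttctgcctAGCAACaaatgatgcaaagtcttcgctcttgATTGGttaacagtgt
H2-Oa (chr17:34092286-34092350, plus strand): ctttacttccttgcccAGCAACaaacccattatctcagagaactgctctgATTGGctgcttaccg
H2-DMb1 (chr17:34153080-34153144, plus strand): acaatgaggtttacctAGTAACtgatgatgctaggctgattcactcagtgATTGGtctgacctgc
H2-DMb2 (chr17:34145109-34145173, plus strand): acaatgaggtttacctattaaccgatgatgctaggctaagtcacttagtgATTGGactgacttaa
H2-Aa (chr17:34287857-34287921, minus strand): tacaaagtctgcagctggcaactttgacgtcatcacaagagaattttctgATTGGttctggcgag

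The gap between the 2 sets of letters was 27 bases in H2-Eb1, 25 in H2-Ob, and 28 in both H2-Oa and H2-DMb1. ATTGG began 59 bases before the annotated start in H2-Eb1, 57 in H2-Ob, 43 in H2-Oa, 61 in H2-DMb1, 90 in H2-DMb2 and 48 in H2-Aa. H2-DMb2 and H2-Aa held ATTGG without AGNAAC at that spacing. The pair H2-DMb1 and H2-DMb2 read alike around ATTGG, and their X box letters differ. H2-DMa had 2 windows, of which 1 held ATTGG, at 198 bases before its start, and neither held the pair of letters. ATTGG alone was in 7 of the 8 windows, and in 22.1% of the windows of all genes. H2-Ab1, Cd74 and Ciita are named only.

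In the knockout-labelled library most class II genes stood lower than in wild type. On the scale of log2(FPKM + 1), 8 of the 10 genes were at least 1.5-fold lower, against 6.13% of all 11985 genes. At least 2-fold lower were 3 of the 10 (H2-Aa, H2-Oa and H2-Ob), against 1.55% of all genes. None of the 10 was at least 1.5-fold higher, against 6.11% of all genes. With a pseudocount of 5 FPKM 1 of the 10 was at least 2-fold lower, against 0.367% of all genes. Less the median of genes of like length it was also 1, against 1.16%. With both libraries scaled to equal FPKM sums, 7 of the 10 were at least 1.5-fold lower, against 3.32% of all genes. The median difference, knockout-labelled minus wild type, was −0.82, with a range of −1.23 to −0.16, and the median over all genes was 0.01. The exceptions were H2-DMb2 and Ciita, which lay within 1.5-fold and whose counting intervals held a ratio of 1. Fewer cells that carry class II and less class II RNA per cell cannot be told apart in these bulk samples.

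**Figure D1:**
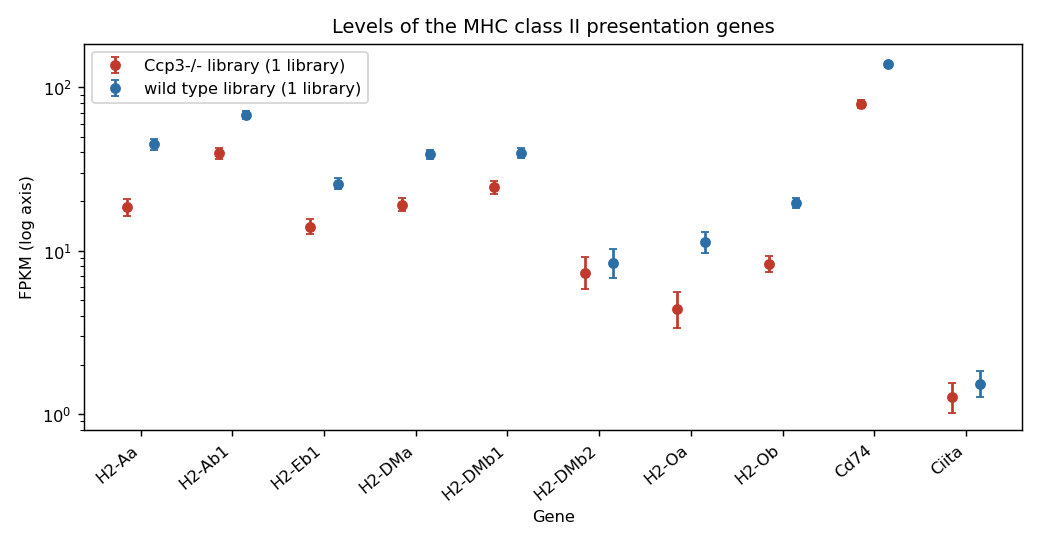
Level of each of the 10 class II genes in FPKM (log axis), in the knockout-labelled (Ccp3-/-) library on the left of each pair and the wild type library on the right, 1 library each. Bars are 95% Poisson intervals of the estimated reads, that is, of counting error alone. The bars overlap for H2-DMb2 (7.33 and 8.34 FPKM) and Ciita (1.26 and 1.53 FPKM), and not for the other genes.

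**Figure D2:**
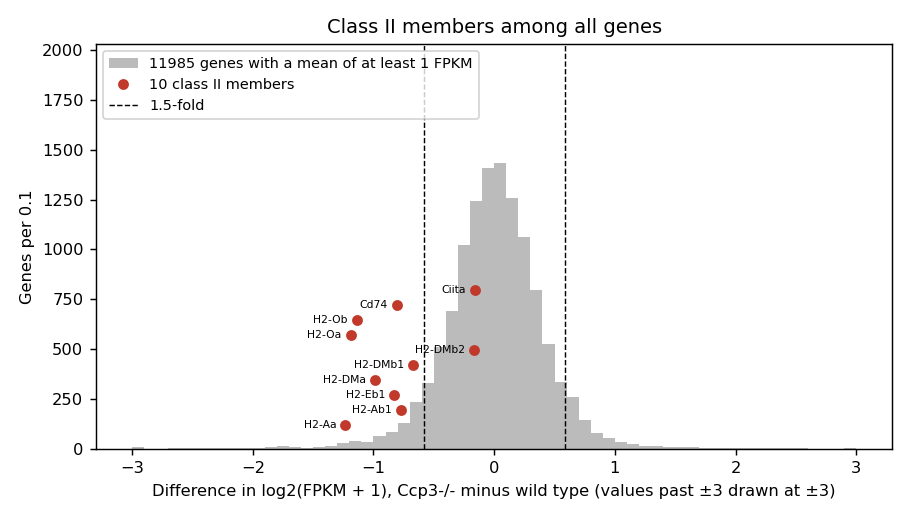
Difference in log2(FPKM + 1), knockout-labelled minus wild type, for all 11985 genes tested (grey bars, genes per 0.1) and for the 10 class II genes (red points, whose height has no meaning). Dashed lines mark 1.5-fold, and 8 of the 10 points lie to the left of the lower line.

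Among the chains that form the peptide groove, H2-Aa differed most. H2-Aa, the alpha chain of the I-A molecule, was listed at 18.5 FPKM in the knockout-labelled library and 44.8 FPKM in the wild type library, a ratio of 0.413 (approximate 95% counting interval 0.358 to 0.475). With a difference of −1.23 it was among the 106 lowest of the genes tested (0.884%). H2-Ab1, the beta chain that pairs with it, was listed at 39.5 FPKM in the knockout-labelled library and 68.1 FPKM in the wild type library, a ratio of 0.579 (0.525 to 0.637). The intervals of these partners do not overlap, so the alpha chain was lower relative to its beta chain. H2-Aa stood at 0.468 of H2-Ab1 in the knockout-labelled library and at 0.658 in the wild type library, and knockout-labelled over wild type this proportion was 0.712 (0.600 to 0.847). H2-Eb1, the beta chain of I-E, was listed at 14.0 FPKM in the knockout-labelled library and 25.7 FPKM in the wild type library, a ratio of 0.545 (0.476 to 0.624). C57BL/6 mice carry the b haplotype, in which the I-E alpha chain is not made, so this beta chain RNA has no usual partner. H2-Eb1 over H2-Ab1 was 0.356 in the knockout-labelled library and 0.378 in the wild type library, and knockout-labelled over wild type this proportion was 0.941 (0.796 to 1.11). A difference in that proportion was not detectable at this depth. H2-Eb2, a further beta chain gene of the locus, was under the filter at 0.27 FPKM in the knockout-labelled library and 0.39 FPKM in the wild type library.

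Cd74, which encodes the invariant chain, was the most abundant of the 10 genes. It was listed at 79.0 FPKM in the knockout-labelled library and 139 FPKM in the wild type library, from about 1359 and 2604 reads. The ratio was 0.570 (0.533 to 0.608), close to those of H2-Ab1 and H2-Eb1. Summed over H2-Aa, H2-Ab1 and H2-Eb1, the chains came to 72.0 FPKM in the knockout-labelled library and 138.6 FPKM in the wild type library. Cd74 stood at 1.10 times the summed chains in the knockout-labelled library and level with them in the wild type library. The file lists 2 transcripts of Cd74, and the length given for the gene was 1249 bases in the knockout-labelled library and 1257 bases in the wild type library. Of 10851 genes with 1 transcript all had equal lengths in both files, against 942 of 4783 genes with several.

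The H2-DM genes did not differ alike. H2-DMa, the alpha chain of the peptide exchange catalyst, was listed at 19.1 FPKM in the knockout-labelled library and 39.0 FPKM in the wild type library, a ratio of 0.491 (0.438 to 0.550). H2-DMb1, a beta chain, was listed at 24.4 FPKM in the knockout-labelled library and 39.5 FPKM in the wild type library, a ratio of 0.619 (0.548 to 0.697). H2-DMa and H2-DMb1 were level in the wild type library, where their Poisson intervals overlap, and H2-DMa was the lower of the pair in the knockout-labelled library. H2-DMa over H2-DMb1 was 0.783 in the knockout-labelled library and 0.988 in the wild type library, and knockout-labelled over wild type this proportion was 0.793 (0.672 to 0.937). H2-DMb2, the second beta chain gene, was listed at 7.33 FPKM in the knockout-labelled library and 8.34 FPKM in the wild type library, a ratio of 0.879 (0.644 to 1.20) from about 78 and 96 reads. The copies H2-DMb1 and H2-DMb2 are uncertain as single genes. Their GENCODE M21 transcripts were 95.8% identical over 1080 aligned bases, and 26.8% of the 50-base stretches of H2-DMb2 also occurred in H2-DMb1, so reads could be split between them. The file gives H2-DMb2 a length of 786 bases, shorter than its GENCODE transcript of 1424 bases. Its difference of −0.17 turned to 0.0035 with equal FPKM sums. H2-DMb2 over H2-DMb1 was 0.300 in the knockout-labelled library and 0.211 in the wild type library, and knockout-labelled over wild type this proportion was 1.42 (1.02 to 1.99). Summed, the 2 beta chain genes came to 31.8 FPKM in the knockout-labelled library and 47.8 FPKM in the wild type library, a ratio of 0.664.

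Both H2-DO genes were more than 2-fold lower in the knockout-labelled library. H2-DO is the inhibitor of H2-DM and is known chiefly from B cells, some dendritic cells and thymic epithelium. H2-Oa, its alpha chain, was listed at 4.38 FPKM in the knockout-labelled library and 11.3 FPKM in the wild type library, a ratio of 0.389 (0.288 to 0.521) from about 64 and 178 reads. H2-Ob, its beta chain, was listed at 8.31 FPKM in the knockout-labelled library and 19.5 FPKM in the wild type library, a ratio of 0.427 (0.372 to 0.486). The intervals of the partners overlap, and H2-Oa over H2-Ob was 0.527 in the knockout-labelled library and 0.578 in the wild type library. Knockout-labelled over wild type this proportion was 0.912 (0.659 to 1.27). The H2-DO genes together came to 0.249 of the H2-DM genes in the knockout-labelled library and 0.354 in the wild type library, as FPKM sums.

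Ciita, which switches the other genes on, was listed at 1.26 FPKM in the knockout-labelled library and 1.53 FPKM in the wild type library. It was the least abundant of the 10 genes in both libraries, from about 93 and 124 reads. The ratio was 0.824 (0.622 to 1.09), so a difference in Ciita was not detectable at this depth, while the interval also holds ratios well below 1. Ciita over Cd74, one of its targets, was 0.0160 in the knockout-labelled library and 0.0110 in the wild type library. Knockout-labelled over wild type this proportion was 1.45 (1.08 to 1.91). Ciita has a much longer transcript than Cd74, and genes of like length had median differences of 0.15 for Ciita and −0.18 for Cd74. The proportion was not corrected for this, and the part of length in it was not tested. The file lists 5 transcripts of Ciita, whose known promoters serve different cell types, and gives 1 FPKM value for all of them.

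**Figure D3:**
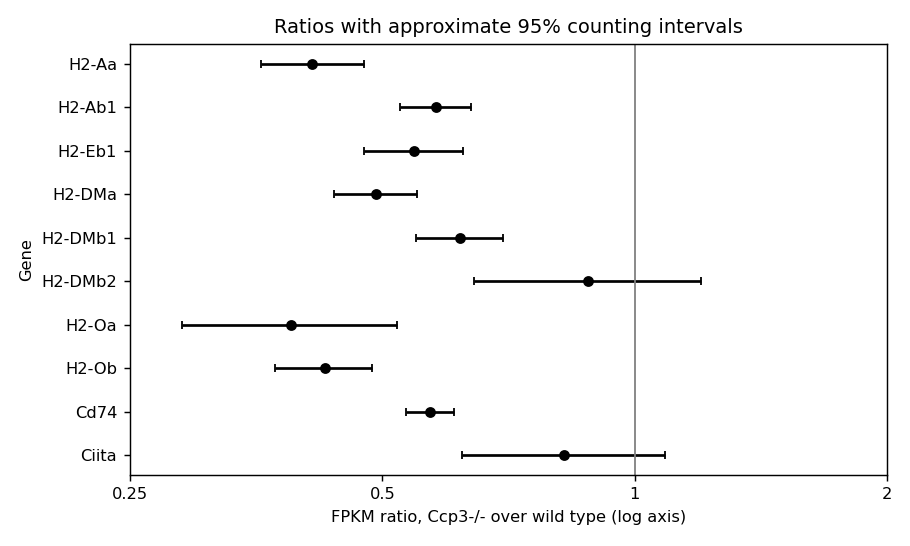
FPKM ratio of each class II gene, knockout-labelled (Ccp3-/-) over wild type, on a log axis, with approximate 95% counting intervals. The intervals of H2-DMb2 and Ciita hold 1, and those of the other genes lie below it, with ratios of 0.389 (H2-Oa) to 0.619 (H2-DMb1). The share of all genes whose interval leaves out 1 is not given, so this has no background.

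The order of the levels was nearly the same in both libraries. In the knockout-labelled library it ran Cd74, H2-Ab1, H2-DMb1, H2-DMa, H2-Aa, H2-Eb1, H2-Ob, H2-DMb2, H2-Oa and Ciita. There the Poisson intervals of the neighbours H2-DMa and H2-Aa overlap, as do those of H2-Ob and H2-DMb2. In the wild type library the order was Cd74, H2-Ab1, H2-Aa, H2-DMb1, H2-DMa, H2-Eb1, H2-Ob, H2-Oa, H2-DMb2 and Ciita. There H2-Aa overlaps with H2-DMb1, H2-DMb1 with H2-DMa, and H2-Oa with H2-DMb2. Among all genes Cd74 ranked 974 by FPKM in the knockout-labelled library and 501 in the wild type library. Summed over the 10 genes, the level was 216 FPKM in the knockout-labelled library and 396 FPKM in the wild type library, a ratio of 0.545. No spread between samples can be given for any of these levels.

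Transcript length moved with the difference between these libraries. Over all genes tested, transcripts shorter than 1000 bases had a median difference of −0.30, and those of 5000 bases or more had one of 0.25. Most class II transcripts are short, and the 200 genes nearest in length to each had medians from −0.27 (H2-DMb2) to 0.15 (Ciita). Less these medians, the class II median was −0.67 and 7 of the 10 genes were at least 1.5-fold lower, against 4.44% of all genes. H2-Ob, at 2670 bases, was lowest on this scale, at −1.16, and H2-Aa stood at −0.998. H2-DMb2 turned to 0.11 and Ciita moved to −0.31. The part of length in the remaining differences was not tested.

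**Figure D4:**
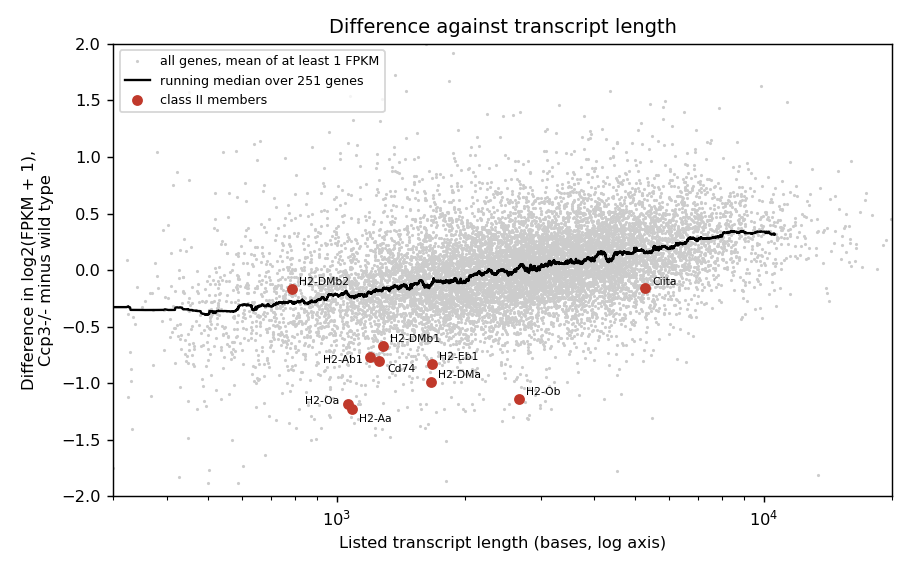
Difference in log2(FPKM + 1), knockout-labelled minus wild type, against listed transcript length in bases (log axis), for all genes tested (grey), with their running median (black line) and the class II genes (red). All class II genes except H2-DMb2 lie below the line.

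Of 11 measured genes that process peptide or the invariant chain, or sort class II molecules, 11 lay within 1.5-fold, near the 87.8% of all genes that did. Their median difference was 0.16. Ifi30, a thiol reductase that opens disulphide bonds of antigens, was listed at 65.7 FPKM in the knockout-labelled library and 44.8 FPKM in the wild type library. Ctsz, a lysosomal cathepsin, had 127 FPKM in the knockout-labelled library and 90.5 FPKM in the wild type library. Sppl2a, the protease that clears the invariant chain remnant, had 13.7 FPKM in the knockout-labelled library and 10.6 FPKM in the wild type library. Ctsl, a cathepsin that cuts the invariant chain in thymic epithelium, had 17.1 FPKM in the knockout-labelled library and 15.2 FPKM in the wild type library. All 4 were thus higher, none by 1.5-fold.

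Of 10 tested genes for factors that act on class II or Ciita transcription, 0 were lower by 1.5-fold or more and 1 was higher, near the 6.13% and 6.11% of all genes. Their median was −0.02. The higher gene was Creb1, which binds the X2 part of the X box, at 12.8 FPKM in the knockout-labelled library and 8.20 FPKM in the wild type library. Rfxap, a subunit of the RFX complex that binds the X1 part, had 8.42 FPKM in the knockout-labelled library and 6.72 FPKM in the wild type library. Spi1, which encodes PU.1, had 129.8 FPKM in the knockout-labelled library and 106 FPKM in the wild type library. Irf8, a factor of dendritic and B cell development, had 53.5 FPKM in the knockout-labelled library and 65.5 FPKM in the wild type library. Of these 4 genes Irf8 alone was lower, by less than 1.5-fold.

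Interferon gamma induces Ciita, and 8 of 8 genes of its pathway lay within 1.5-fold, near the 87.8% of all genes, with a median of −0.03. Irf2, which binds the interferon-responsive Ciita promoter together with Irf1, had 51.0 FPKM in the knockout-labelled library and 65.8 FPKM in the wild type library. Irf1 had 56.5 FPKM in the knockout-labelled library and 72.5 FPKM in the wild type library. Ifngr1, a receptor chain, was on the other side, at 99.7 FPKM in the knockout-labelled library and 76.4 FPKM in the wild type library. Of 5 costimulation genes, whose products accompany class II on antigen presenting cells, 3 were under the filter. Icosl, the ligand of ICOS on T cells, had 5.17 FPKM in the knockout-labelled library and 7.86 FPKM in the wild type library.

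Class I presentation genes had a median of −0.33, and 2 of 13 were lower by 1.5-fold or more, against 6.13% of all genes. These were H2-Q7, a non-classical class I gene whose reads may be shared with its close relatives, and B2m, the light chain of class I molecules. B2m had 1421 FPKM in the knockout-labelled library and 3244 FPKM in the wild type library, a ratio of 0.438 (0.430 to 0.446), near that of H2-Aa. None of 6 tested genes that neighbour the class II genes on chromosome 17 was lower by that fold, near the share of all genes. Their median was −0.20, and 5 of the 6 were below 0, against 49.0% of all genes. Genes of like length to these also lay slightly below 0, with a median of −0.07. Psmb9, a subunit of the immunoproteasome, had 56.9 FPKM in the knockout-labelled library and 84.5 FPKM in the wild type library. H2-K1, a classical class I heavy chain, had a difference of −0.34, and Tap1, a peptide transporter subunit, one of −0.33. Brd2, a chromatin reader gene that lies between class II genes, had 103 FPKM in the knockout-labelled library and 109 FPKM in the wild type library.

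B cell markers and most plasmacytoid dendritic cell markers were lower beside the class II genes, while conventional dendritic cell markers and macrophage markers were mixed. Their part in the class II result was not tested. Counts in the marker lists are to be read against 6.13% of all genes lower and 6.11% higher by 1.5-fold or more. Of 12 tested B cell markers 9 were lower by that fold, and their median was −0.87. The 14 listed B cell markers summed to 66.8 FPKM in the knockout-labelled library and 141 FPKM in the wild type library. Cd79a, a signalling chain of the B cell receptor, had a ratio of 0.509 (0.451 to 0.572), within the range of the class II genes. Of 10 tested plasmacytoid dendritic cell markers 8 were lower by 1.5-fold or more and 2 were above 0. The median of the 10 was −0.96. Above 0 was Tcf4, at 18.9 FPKM in the knockout-labelled library and 14.1 FPKM in the wild type library. Runx2 was nearly level, at 14.8 FPKM in the knockout-labelled library and 14.7 FPKM in the wild type library. The list summed to 100.04 FPKM in the knockout-labelled library and 163 FPKM in the wild type library. Of 9 tested conventional dendritic cell markers 3 were lower by that fold and 4 were above 0, and their median was −0.27. The 13 listed summed to 329 FPKM in the knockout-labelled library and 401 FPKM in the wild type library. Nearly all of that gap is Flt3, at 82.5 FPKM in the knockout-labelled library and 155 FPKM in the wild type library. Flt3, which is not in the stated sort gate, is also counted below in a list of surface genes that includes genes of the gate. Macrophage and monocyte markers, of the third lineage that carries class II, had a median of 0.15. Of 13 tested, 1 was lower and 2 were higher by 1.5-fold or more, near the shares of all genes. The lower gene was Ly86, at 30.1 FPKM in the knockout-labelled library and 46.9 FPKM in the wild type library. The list summed to 184 FPKM in the knockout-labelled library and 140.4 FPKM in the wild type library. That higher sum rests on the 2 higher genes, F13a1 and Ccr2. F13a1 had 81.22 FPKM in the knockout-labelled library and 40.55 FPKM in the wild type library, and Ccr2 had 29.2 and 13.5 FPKM.

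Markers of cells that do not usually carry class II in mice stood on both sides, again beside 6.13% of all genes lower and 6.11% higher. Of 8 tested T cell markers 5 were lower by 1.5-fold or more, with a sum of 33.9 FPKM in the knockout-labelled library and 56.1 FPKM in the wild type library, and their median was −0.68. Of 12 neutrophil markers 0 were lower and 5 higher by that fold, with a sum of 11030 FPKM in the knockout-labelled library and 8031 FPKM in the wild type library, and their median was 0.39. No listed marker of the B cell, dendritic cell, macrophage, T cell or neutrophil lists was at 0 in either library. Of 7 surface genes, among them those of Sca-1, c-Kit, CD150 and CD48, 3 were lower by 1.5-fold or more. These were Procr, Flt3 and Ly6a, of which Ly6a alone belongs to the stated sort gate. The median of the 7 was −0.49.

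**Figure D5:**
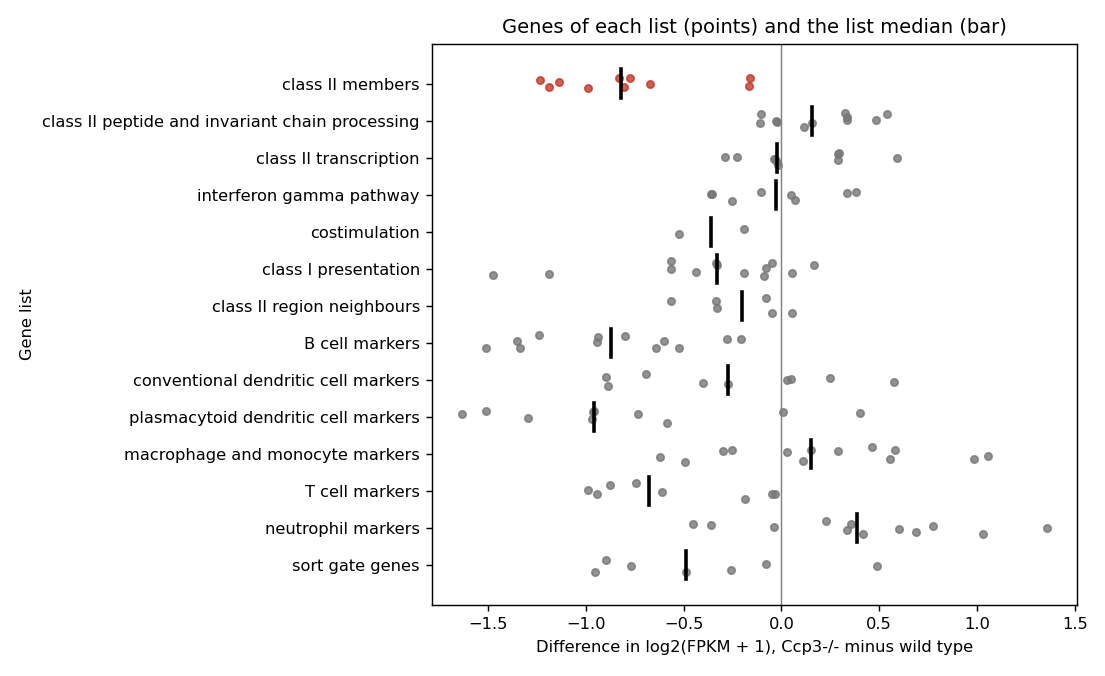
Difference in log2(FPKM + 1), knockout-labelled minus wild type, of each gene averaging 1 FPKM or more (points) in the class II set (red) and in the other gene lists (grey), with list medians as black bars. The class II median of −0.82 lies between those of the B cell (−0.87) and T cell (−0.68) markers, and the peptide and invariant chain processing genes lie around 0.16.

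With 2 libraries the pattern of a gene is a single difference. Among genes of the other lists averaging 5 FPKM or more, the differences nearest the class II median were those of Ly6a (−0.77), Cd8b1 (−0.87) and Cd3g (−0.74). Ly6a encodes Sca-1, and was listed at 28.4 FPKM in the knockout-labelled library and 49.1 FPKM in the wild type library. Cd8b1 and Cd3g encode T cell surface chains, and both were under 10 FPKM in either library.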

How the data were processed

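RNA of 2 sorted cell samples was sequenced on a BGISEQ-500, per the labels. Each deposited file lists Entrez and RefSeq identifiers, transcript length and, made by the authors, FPKM for every gene, per the file headers. The submitters' processing notes name HISAT, HISAT2, RSEM and mm9. Settings and strandedness are not given here. A gene missing from a file was taken as 0. Symbols came from RefSeq of GRCm38.p6, which matched 17169 of 17216 identifiers.

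Differences are log2(FPKM + 1), knockout-labelled minus wild type, which understates changes of low genes. Ratios use FPKM without the pseudocount. Reads were estimated from the step between low FPKM values of genes with 1 transcript and lengths of 300 to 1200 bases. In the knockout-labelled library 88.3% of 386 such values, and in the wild type library 90.6% of 393, lay within 0.15 of a whole read, with step and offset chosen on these same values. Exact conditional and Poisson 95% intervals of these reads are approximate and cover counting error only. Scripts were tested on simulated data. Software was Python 3.11.15 with Biopython 1.88, matplotlib 3.10.9, scipy 1.17.1, pandas 2.3.3 and numpy 2.4.6.

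The members, the 14 other gene lists and the rules were chosen with earlier results of these data known. Named from each list were up to 4 genes averaging 5 FPKM or more, by absolute difference. For the class I and marker lists not all of these are given, and for the plasmacytoid and neutrophil lists none are. One gene that the rule names is not reported here. Also named were the 3 genes nearest the class II median, Agbl3, genes that make up small counts, and Cd48, Slamf1 and H2-Eb2, which were chosen after their values were seen.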

Additional observations from a re-analysis of the deposited data

How the results depend on the processing

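The class II median stayed below 0 under all 9 alternatives, between −0.87 (equal upper quartiles) and −0.63 (equal sums). It moved most with equal FPKM sums (−0.63, where all genes had a median of 0.18) and with centring on transcript length (−0.67). The count of genes at least 1.5-fold lower was 7 or 8 throughout. The share of all genes past that fold ran from 2.69% (pseudocount of 5 FPKM) to 8.39% (pseudocount of 0.1 FPKM). The count at least 2-fold lower was 3 as reported, against 1.55% of all genes. It was 1 with a pseudocount of 5 FPKM (0.367% of all genes), 1 with length centring (1.16%) and 2 with equal sums (1.15%). With a pseudocount of 0.1 FPKM the count was 4, and the share of all genes rose as well, to 2.64%. It was also 4 with equal upper quartiles (1.81%) and with scaling by a trimmed mean of ratios (TMM, 1.66%). H2-DMb2 changed sign with equal sums (0.0035) and with length centring (0.11), and the other 9 genes kept theirs. With H2-DMb1 and H2-DMb2 summed, 7 of 9 values were at least 1.5-fold lower, against 6.12% of all genes. No paired analysis was possible because there was 1 library per genotype, which also means that no library could be left out. Depth limits Ciita, H2-DMb2 and H2-Oa most, each with fewer than 100 estimated reads in the knockout-labelled library.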
